A study of Mus musculus with 18 samples.

Results

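Uridine phosphorylases and 8 further enzymes of pyrimidine metabolism were followed through the kidney transcriptome of mice on a high fat diet (HFD). The 10 genes, Upp1, Upp2, Tyms, Dpyd, Dpys, Upb1, Cda, Uck1, Tk1 and Dctd, were taken by symbol from a table of 19518 genes. They were picked with measured values in view: Upp2 and Tyms for their difference between HFD+AOS-FMT and HFD kidneys, and Tyms also for its difference between both transplant groups. In those 2 comparisons the members are therefore described, with no p-value. Earlier results of HFD+AOS against HFD were also known at the choice, so its p-values for members are not independent of it. Of the 10 genes, 8 reached a value of 1 in at least 3 libraries and entered the tests with 12022 other genes; Dpys and Dctd did not.

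The 18 libraries came from frozen kidney of 10-week-old ICR mice, which are outbred. There were 3 libraries in each of 6 groups: HFD with a transplant labelled AOS 10 mg/kg (HFD+AOS-FMT), HFD with a control transplant (HFD+control-FMT), HFD with AOS at 10 mg/kg (HFD+AOS), HFD alone (HFD), AOS at 10 mg/kg without the diet (AOS), and untreated mice (control). FMT is the transfer of faecal microbes into another animal; AOS is written here as the labels give it, and the donors of the transplants were not described. Nothing in the labels ties the 3 libraries in a group to 3 separate animals, so p-values measure the spread between libraries only. Values are the deposited normalized signal, whose unit was not named, so levels are compared between libraries and never between genes.

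Pyrimidine nucleosides are kept in balance by salvage and breakdown. Uridine phosphorylases (Upp1, Upp2) split uridine into uracil and ribose phosphate, while cytidine deaminase (Cda) supplies uridine from cytidine and uridine-cytidine kinase (Uck1) returns both nucleosides to the nucleotide pool. Uracil and thymine are then broken down by dihydropyrimidine dehydrogenase (Dpyd), dihydropyrimidinase (Dpys) and beta-ureidopropionase (Upb1), the last giving beta-alanine and its methylated relative. Thymidylate synthase (Tyms), thymidine kinase (Tk1) and dCMP deaminase (Dctd) feed the thymidine nucleotides needed for DNA synthesis, and Tyms and Tk1 are known for their rise in dividing cells.

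Of the 10 genes, 9 matched the RefSeq promoter table (build GRCm38.p6), with 15 windows of 300 bases, each running from 250 bases before a start site to 50 after it. The windows of Upp2 and Tyms are shown because these 2 genes led to the choice of the members and because clock genes differed between the same libraries. Both strands were searched for the E-box CACGTG, for the D-box written as TTATGTAA, TTACGTAA or TTACATAA, and for the TATA box TATAAA or TTTATA; E-boxes and D-boxes are known as sites of clock transcription factors. None of these motifs contains another. Capitals mark a match.
Upp2, first start, GRCm38.p6 chr2:58567084-58567383, plus strand: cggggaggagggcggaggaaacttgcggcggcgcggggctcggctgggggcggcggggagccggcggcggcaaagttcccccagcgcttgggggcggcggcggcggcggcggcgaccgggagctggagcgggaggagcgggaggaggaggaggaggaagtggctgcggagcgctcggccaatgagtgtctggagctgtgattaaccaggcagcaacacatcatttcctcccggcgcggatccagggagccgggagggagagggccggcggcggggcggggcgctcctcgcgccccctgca
Upp2, second start, GRCm38.p6 chr2:58754934-58755233, plus strand: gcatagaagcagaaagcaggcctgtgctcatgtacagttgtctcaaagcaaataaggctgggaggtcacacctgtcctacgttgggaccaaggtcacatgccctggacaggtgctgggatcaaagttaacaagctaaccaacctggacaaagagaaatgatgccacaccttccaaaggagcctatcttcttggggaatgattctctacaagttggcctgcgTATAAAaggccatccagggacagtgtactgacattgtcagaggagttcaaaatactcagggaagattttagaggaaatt
Tyms, GRCm38.p6 chr5:30073576-30073875, minus strand: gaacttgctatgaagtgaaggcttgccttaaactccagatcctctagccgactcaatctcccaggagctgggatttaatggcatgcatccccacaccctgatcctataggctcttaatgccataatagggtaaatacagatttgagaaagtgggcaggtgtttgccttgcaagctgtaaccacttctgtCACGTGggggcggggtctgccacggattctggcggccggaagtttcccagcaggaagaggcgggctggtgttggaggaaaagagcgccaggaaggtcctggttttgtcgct
The first Upp2 window was 75.3% G or C with 37 CpG pairs and held none of the motifs. The second Upp2 window was 47.0% G or C with 2 CpG pairs, and it held TATAAA starting 29 bases before the start site, a motif found in 13.6% of the 32851 windows in the table. The Tyms window held CACGTG starting 61 bases before the start site, as 7.15% of all windows did. The D-box letters occurred in 1.06% of all windows and in none of the 15 windows of the members. A match is a string of letters and not a measured binding site, and the values here do not separate the 2 Upp2 starts.

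Upp2, the uridine phosphorylase known mainly from liver and kidney, was lowest on average in HFD kidneys and highest in both AOS arms on the diet. Its values were 11.88, 10.37 and 12.74 in HFD+AOS-FMT kidneys, 8.35, 6.52 and 8.23 in HFD+control-FMT kidneys, 10.45, 10.68 and 15.54 in HFD+AOS kidneys, and 4.76, 4.97 and 6.68 in HFD kidneys. Without the diet they were 10.49, 9.64 and 10.78 in AOS kidneys and 8.28, 10.85 and 9.75 in control kidneys. All 3 HFD libraries thus lay below every control, AOS, HFD+AOS and HFD+AOS-FMT library, and HFD overlapped only HFD+control-FMT. In order of group mean, HFD (5.47 ± 1.05) was followed by HFD+control-FMT (7.70 ± 1.02), control (9.63 ± 1.29), AOS (10.3 ± 0.592), HFD+AOS-FMT (11.7 ± 1.20) and HFD+AOS (12.2 ± 2.87; SD, n = 3 each). Every pair of neighbours in this order overlapped, and 7 of the 15 possible pairs of groups did not. Upp2 was picked for its difference in 1 of these pairs, so the count is partly fixed by that choice. In the comparisons given below, 13.2% to 28.2% of all genes had groups without overlap. A limma F test of any difference among the 6 groups takes in the comparisons Upp2 was picked from; 1 member, Upp2, and 1.02% of all genes passed it, and nothing is read from that count.

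Upp1, the more widely expressed uridine phosphorylase, did not follow Upp2. Its values were 4.04, 6.54 and 4.58 in HFD+AOS-FMT, 5.63, 5.55 and 6.14 in HFD+control-FMT, 5.40, 3.97 and 5.35 in HFD+AOS, and 4.54, 4.85 and 5.66 in HFD kidneys. In AOS kidneys Upp1 stood at 5.94, 2.93 and 5.05, and in control kidneys at 6.35, 6.70 and 17.71. The value of 17.71, in control replicate 3, was the highest of the 18 and set the control mean of 10.3 ± 6.46. Control replicate 1 and 2 still lay above all HFD, AOS, HFD+AOS and HFD+control-FMT libraries, and HFD+AOS-FMT replicate 2 at 6.54 lay between them. Over the 18 libraries the 2 phosphorylases had a Pearson r of 0.02 on the log2(value + 1) scale.

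Tyms, which makes thymidylate from dUMP, was lowest in both AOS arms on the diet. Its values were 6.21, 5.12 and 5.76 in HFD+AOS-FMT, 7.66, 8.69 and 7.16 in HFD+control-FMT, 6.0, 5.03 and 6.59 in HFD+AOS, and 6.81, 8.39 and 6.98 in HFD kidneys. Off the diet Tyms stood at 6.98, 7.01 and 6.81 in AOS kidneys and at 6.92, 7.59 and 7.47 in control kidneys. No HFD+AOS or HFD+AOS-FMT library exceeded 6.59, and no library of the other 4 groups was below 6.81. These 2 AOS arms overlapped each other, and 9 of the 15 pairs of groups did not overlap. Tyms was picked for its difference in 2 of these pairs, so the count is partly fixed by that choice. In the comparisons given below, 13.2% to 28.2% of all genes had groups without overlap.

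**Figure D1:**
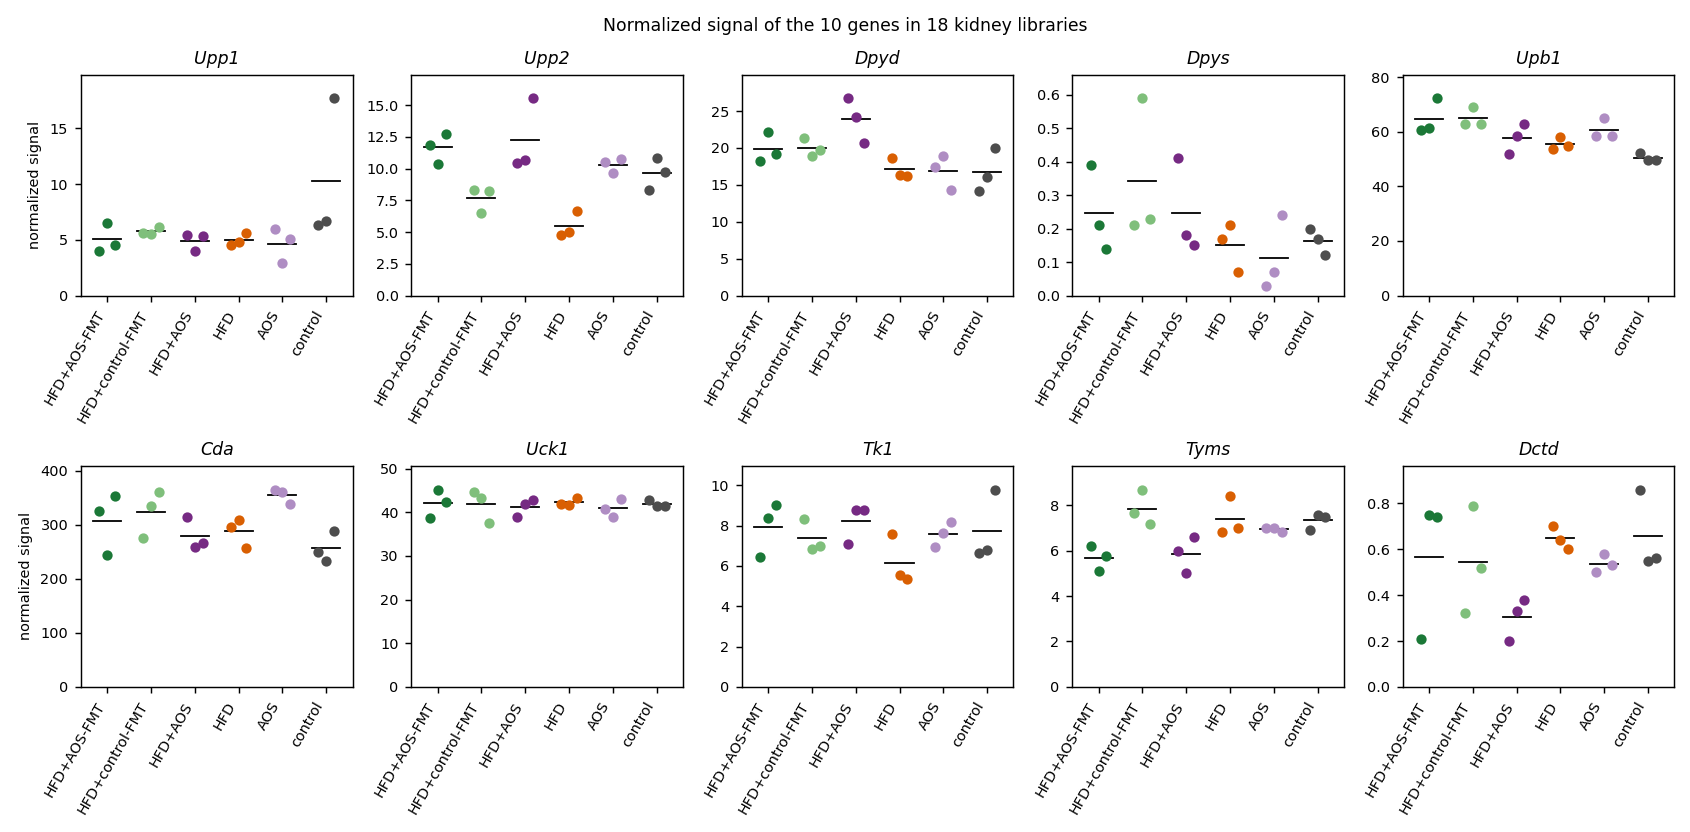
Normalized signal (y axis, from 0) of the 10 genes in each library (points) of 6 groups of 3 (x axis), with bars at the group means. Upp2 is lowest in HFD, Tyms is lowest in HFD+AOS-FMT and HFD+AOS, and a single control library reaches 17.71 for Upp1.

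Among the enzymes that break uracil down, Dpyd, which carries out the rate-limiting first step, was highest in HFD+AOS. It stood at 18.18, 22.15 and 19.25 in HFD+AOS-FMT, 21.33, 18.88 and 19.74 in HFD+control-FMT, 26.74, 24.26 and 20.71 in HFD+AOS, and 18.67, 16.33 and 16.27 in HFD kidneys. It was 17.36, 18.93 and 14.37 in AOS and 14.15, 16.13 and 19.94 in control kidneys. All HFD+AOS libraries exceeded all HFD, AOS and control libraries. Dpys, the second enzyme, did not exceed 0.59 in any library, and at this level no difference could be read. Upb1, the third enzyme, averaged 64.8 ± 6.47 in HFD+AOS-FMT, 64.9 ± 3.46 in HFD+control-FMT, 57.7 ± 5.69 in HFD+AOS, 55.4 ± 2.39 in HFD, 60.6 ± 3.72 in AOS and 50.5 ± 1.46 in control kidneys. The 3 control libraries, at 49.57 to 52.20, overlapped only HFD+AOS, whose lowest library stood at 51.68.

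Of the salvage enzymes, Cda varied by 14.7% over the 18 libraries (coefficient of variation), Tk1 by 16.1% and Uck1 by 4.98%, against 14.3% for Tyms and 10.8% for Upb1. Cda averaged 308 ± 56.8 in HFD+AOS-FMT, 324 ± 43.4 in HFD+control-FMT, 280 ± 30.7 in HFD+AOS, 288 ± 27.0 in HFD, 355 ± 14.4 in AOS and 257 ± 28.3 in control kidneys. The AOS libraries, at 338.49 to 365.54, lay above all HFD+AOS, HFD and control libraries. Uck1 stayed between 37.46 and 45.22 over the 18 libraries, and every pair of groups overlapped. Tk1, the thymidine kinase of dividing cells, averaged 7.95 ± 1.35 in HFD+AOS-FMT, 7.38 ± 0.816 in HFD+control-FMT, 8.21 ± 0.990 in HFD+AOS, 6.16 ± 1.24 in HFD, 7.59 ± 0.621 in AOS and 7.75 ± 1.77 in control kidneys, again with overlap in every pair. Dctd, which makes dUMP for Tyms, was at most 0.86; it stood at 0.20, 0.33 and 0.38 in HFD+AOS against 0.70, 0.64 and 0.60 in HFD kidneys, values too low for the tests.

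Several libraries stood apart in genes other than the members. Control replicate 3 had a sum over 8 adrenal gland genes of 973.25, against 1.55 to 4.28 in the other 17 libraries, and over 9 tubule injury genes of 2987.69, against 292.49 to 726.5, where 726.5 is control replicate 2. Its sum over 12 genes of dividing cells was 88.51, against 36.39 to 46.8, and Kap, the abundant androgen-regulated transcript of mouse proximal tubule, made up 2.48% of its summed signal, against 17.2% to 22.9%. The 9 testis germ cell genes other than Smcp summed to 27.55 to 41.6 in all 3 control libraries and in HFD replicates 1 and 2, and to at most 0.30 elsewhere. The 8 proximal tubule genes other than Kap were detected in every group, with sums of 3247.55 to 5252.13, the lowest in control replicate 3. A fit with the germ cell libraries as a term, and one without control replicate 3, are given beside the results they alter. HFD was the only group with libraries on both sides of the germ cell term. The term therefore rests on HFD replicate 3 against HFD replicates 1 and 2. The part of the other marker genes in the members' values was not tested.

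HFD against control asked what the diet alone did. Upp2 averaged 5.47 ± 1.05 in HFD and 9.63 ± 1.29 in control kidneys (SD, n = 3 each), a log2 difference of -0.72 ± 0.15 (SE) that did not pass (limma adjusted p = 0.137). Upp1 averaged 5.02 ± 0.578 in HFD against 10.3 ± 6.46 in control kidneys, a log2 difference of -0.76 ± 0.29 (limma adjusted p = 0.246), and of -0.33 without control replicate 3. Upb1 was 55.4 ± 2.39 in HFD against 50.5 ± 1.46 in control kidneys (log2 difference 0.13 ± 0.081, limma adjusted p = 0.370). None of the 8 tested members passed, nor did any of the 12030 genes (0%), while 2 members and 17.4% of all genes had an unadjusted p under 0.05. The groups did not overlap for 3 members (Upb1 higher, Upp1 and Upp2 lower) and for 15.7% of all genes. The HFD libraries are those that led to the choice of Upp2, so its difference here is not independent of that choice. Tubule injury genes summed to 293.34, 324.98 and 380.54 in HFD against 522.8, 726.5 and 2987.69 in control kidneys, and 11 leukocyte genes to 57.81, 50.59 and 65.56 in HFD against 85.79, 74.94 and 115.74 in control kidneys. Neither overlapped, and the part of both in the members' differences was not tested. In whole kidney, fewer cells of a type and less RNA per cell cannot be told apart, here and in all that follows.

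HFD+AOS against HFD asked what AOS did on the diet; how AOS was given is not stated in the labels. Upp2 rose to 12.2 ± 2.87 in HFD+AOS, against 5.47 ± 1.05 in HFD kidneys, 2.23 times as high (log2 difference 1.02 ± 0.15, limma adjusted p = 0.00942). All 3 HFD+AOS libraries exceeded all 3 HFD libraries. Leaving out each of the libraries of both groups, or control replicate 3, gave log2 differences of 0.85 to 1.15, each past the threshold. With the germ cell transcripts as a term the difference was 0.76 ± 0.20 and did not pass. That term in effect sets HFD+AOS against HFD replicate 3 alone, the 1 HFD library without these transcripts. The comparison shares the HFD libraries with the one that Upp2 was picked from and is not independent support for it. Its own earlier results were also known when the members were chosen, so the p-value is not that of a fresh test.

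The other 7 tested members did not pass in HFD+AOS against HFD with all libraries. Dpyd averaged 23.9 ± 3.03 in HFD+AOS against 17.1 ± 1.37 in HFD kidneys (log2 difference 0.46 ± 0.13, limma adjusted p = 0.102). In a fit without control replicate 3, which belongs to neither group but enters the shared estimate of spread, Dpyd passed at the same log2 difference (limma adjusted p = 0.0230). In that fit 819 of 11958 genes passed, against 99 of 12030 with all libraries. Tyms averaged 5.87 ± 0.788 in HFD+AOS against 7.39 ± 0.867 in HFD kidneys (log2 difference -0.29 ± 0.099, limma adjusted p = 0.170). Tk1 averaged 8.21 ± 0.990 in HFD+AOS against 6.16 ± 1.24 in HFD kidneys (log2 difference 0.37 ± 0.15, limma adjusted p = 0.263). In all, 1 of 8 members passed and 0.823% of all genes, and 3 members (Upp2 and Dpyd higher, Tyms lower) and 28.2% of all genes had groups without overlap. Upp2 and Tyms were both picked for their difference from these same HFD libraries, so their share in these counts is partly fixed by that choice and nothing is read from it.

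**Figure D2:**
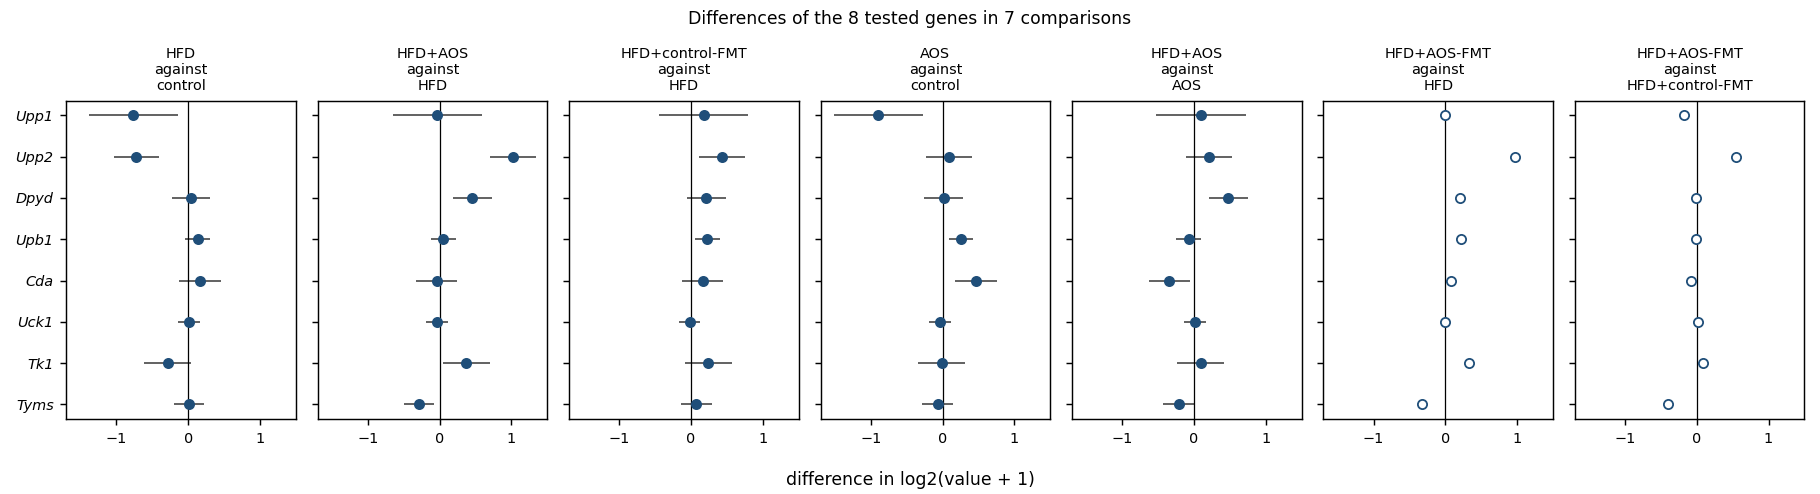
Difference in log2(value + 1) (x axis) of the 8 tested genes (rows) in 7 comparisons (panels), first-named group minus second. Filled points carry 95% confidence intervals; open points, in the comparisons used to choose members, carry none. Upp2 stands at 1.02 in HFD+AOS against HFD and at -0.72 in HFD against control.

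HFD+AOS-FMT against HFD bears on the title of the series, which concerns the transplant and the HFD kidney; it was used to choose Upp2 and Tyms and is described without p-values. Upp2 averaged 11.7 ± 1.20 in HFD+AOS-FMT and 5.47 ± 1.05 in HFD kidneys, a log2 difference of 0.98. Tyms averaged 5.70 ± 0.548 in HFD+AOS-FMT and 7.39 ± 0.867 in HFD kidneys, a log2 difference of -0.32. Upb1 differed by 0.22 and Tk1 by 0.32 on the same scale. The limma threshold was passed by 1 member, Upp2, and by 0.175% of all genes. Upp2 did not pass with the germ cell term (log2 difference 0.72) or after quantile normalization (0.89). Nor did it pass in 5 of 7 fits without 1 library (0.90 to 1.05). Upp2 was picked from these values, so nothing is read from that count or from any of these calls. Groups did not overlap for Upp2 and Upb1, which were higher in HFD+AOS-FMT, and for Tyms, which was lower, while 25.2% of all genes did not overlap.

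HFD+control-FMT against HFD set the control transplant on the diet against the diet alone. Upp2 averaged 7.70 ± 1.02 in HFD+control-FMT against 5.47 ± 1.05 in HFD kidneys (log2 difference 0.43 ± 0.15), and the groups overlapped. With the germ cell transcripts as a term, and so in effect against HFD replicate 3 alone, this difference was 0.17 ± 0.20. Upb1 averaged 64.9 ± 3.46 in HFD+control-FMT against 55.4 ± 2.39 in HFD kidneys (log2 difference 0.22 ± 0.081). Dpyd averaged 20.0 ± 1.24 in HFD+control-FMT against 17.1 ± 1.37 in HFD kidneys (log2 difference 0.22 ± 0.13). All 3 had a limma adjusted p of 1.00, and no gene of the 12030 passed (0%). Upb1 and Dpyd had groups without overlap, 2 of 8 members against 15.4% of all genes. The members with an unadjusted p under 0.05 were Upp2 and Upb1, 2 of 8 against 4.5% of all genes. Upp2 was picked for its difference from these same HFD libraries, so its share in that count is partly fixed by that choice. All comparisons with or of the HFD group share its 3 libraries.

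HFD+AOS-FMT against HFD+control-FMT set the transplants against each other; Tyms was picked partly from it, and no test is given. Tyms averaged 5.70 ± 0.548 in HFD+AOS-FMT and 7.84 ± 0.780 in HFD+control-FMT kidneys, a log2 difference of -0.40. Upp2 averaged 11.7 ± 1.20 in HFD+AOS-FMT and 7.70 ± 1.02 in HFD+control-FMT kidneys, a log2 difference of 0.54. Both genes had groups without overlap, as did 18% of all genes. Upb1 and Dpyd, at 64.8 ± 6.47 and 19.9 ± 2.05 in HFD+AOS-FMT and at 64.9 ± 3.46 and 20.0 ± 1.24 in HFD+control-FMT kidneys, overlapped.

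AOS against control, off the diet, shares no library with the comparisons used for choosing. Upp2 averaged 10.3 ± 0.592 in AOS against 9.63 ± 1.29 in control kidneys (log2 difference 0.09 ± 0.15, 95% interval -0.22 to 0.41, limma adjusted p = 0.760). All 3 control libraries and no AOS library carried the germ cell transcripts. With these as a term the difference had the opposite sign, -0.29 ± 0.25 (limma adjusted p = 0.861). The term was estimated within HFD alone, where only replicate 3 lacked the transcripts. Tubule injury genes summed to 409.09 to 446.94 in AOS and to 522.8 to 2987.69 in control kidneys; their part in the values was not tested. Cda averaged 355 ± 14.4 in AOS against 257 ± 28.3 in control kidneys (log2 difference 0.47 ± 0.14, limma adjusted p = 0.324), with no overlap. Upb1 averaged 60.6 ± 3.72 in AOS against 50.5 ± 1.46 in control kidneys (log2 difference 0.26 ± 0.081, limma adjusted p = 0.345), again with no overlap. Upp1 had a log2 difference of -0.89 ± 0.29 (limma adjusted p = 0.345), and of -0.46 without control replicate 3. No member passed, against 0.0333% of all genes; 3 of 8 members (Cda and Upb1 higher, Upp1 lower) had groups without overlap, against 13.2% of all genes. The same 3 members had an unadjusted p under 0.05, against 12.7% of all genes.

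HFD+AOS against AOS, the diet under AOS, likewise shares no library with the choosing comparisons. Dpyd averaged 23.9 ± 3.03 in HFD+AOS against 16.9 ± 2.32 in AOS kidneys (log2 difference 0.48 ± 0.13, limma adjusted p = 0.186), with no overlap. Without control replicate 3 Dpyd passed (limma adjusted p = 0.0445), as did 158 of 11958 genes in all, against 0 with all libraries. Cda averaged 280 ± 30.7 in HFD+AOS against 355 ± 14.4 in AOS kidneys (log2 difference -0.34 ± 0.14, limma adjusted p = 0.354), and Tyms 5.87 ± 0.788 in HFD+AOS against 6.93 ± 0.108 in AOS kidneys (log2 difference -0.21 ± 0.099, limma adjusted p = 0.444). Upp2 averaged 12.2 ± 2.87 in HFD+AOS against 10.3 ± 0.592 in AOS kidneys (log2 difference 0.21 ± 0.15, 95% interval -0.11 to 0.52, limma adjusted p = 0.665), with overlap. No member and none of the 12030 genes passed (0%), and 3 of 8 members (Dpyd higher, Cda and Tyms lower) had groups without overlap, against 24.2% of all genes. At an unadjusted p under 0.05 these were the same 3 members, against 11.1% of all genes.

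Upp2 was set beside the circadian clock because its high and low libraries differed in clock genes. Dbp, a clock output transcription factor that binds the D-box, stood at 97.78, 68.39 and 63.79 in HFD+AOS-FMT, 10.38, 13.1 and 43.69 in HFD+control-FMT, 69.73, 72.26 and 92.87 in HFD+AOS, and 3.26, 10.17 and 3.36 in HFD kidneys. It was 25.98, 36.46 and 11.51 in AOS and 2.76, 6.9 and 90.6 in control kidneys. Arntl, the clock activator that peaks at the opposite time of day from Dbp, was at 1.30 to 1.96 in HFD+AOS-FMT, 3.39 to 8.51 in HFD+control-FMT, 1.48 to 2.41 in HFD+AOS, 8.64 to 10.9 in HFD, 4.59 to 8.24 in AOS and 2.71 to 12.54 in control kidneys. The 6 libraries of both AOS arms on the diet were thus high in Upp2 and Dbp and low in Arntl. Control replicates 1 and 2, with Dbp at 2.76 and 6.9, had Upp2 at 8.28 and 10.85. The HFD libraries, with Dbp at 3.26 to 10.17, had Upp2 at 4.76 to 6.68. These libraries also differ in diet. Control replicate 3, with Dbp at 90.6, had Upp2 at 9.75, between the other 2 control libraries. It is the library that stood apart in adrenal gland genes, tubule injury genes and Kap. The part of that difference in its Dbp and Upp2 values was not tested. Hours of collection were not given in the sources used here, and the part of collection time in these values was not tested.

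**Figure D3:**
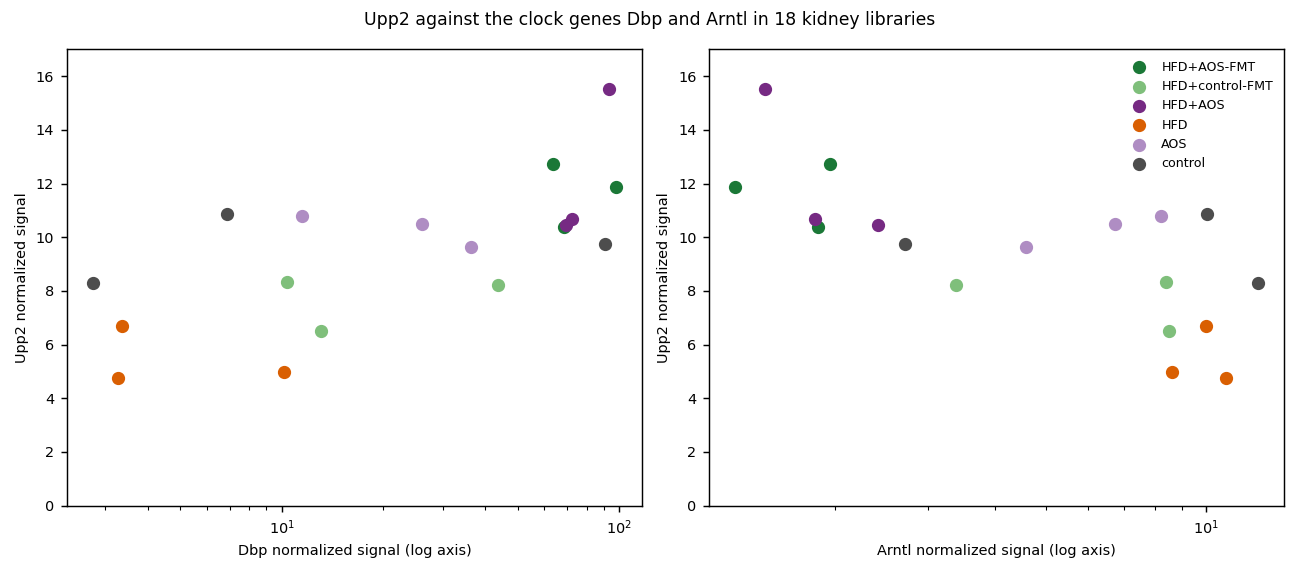
Upp2 signal (y axis, from 0) against Dbp (left) and Arntl (right) signal (x axes, logarithmic) in 18 libraries, coloured by group. HFD+AOS-FMT and HFD+AOS libraries sit at high Dbp and low Arntl. Control replicates 1 and 2 sit at low Dbp, as do HFD libraries, from which they also differ in diet. Upp2 is at 8.28 and 10.85 in these control libraries and at 4.76 to 6.68 in HFD libraries.

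The genes whose levels ran most like Upp2 over the 18 libraries were B4galnt3, a glycosyltransferase (Pearson r = 0.90 on the log2 scale, 0.90 without control replicate 3), Dido1 (0.82 and 0.83) and Slc35d1, a nucleotide sugar transporter (0.80 and 0.81). With group means removed these fell to 0.60, 0.57 and 0.27. Most like Tyms were Prr13 (0.87 with and without that library), the translation initiation factor Eif1 (0.86 in both) and the nucleolar methyltransferase Fbl (0.85 in both). With group means removed those of Tyms fell to 0.70, 0.65 and 0.62. Likeness to Upp1 depended on control replicate 3. Sh3bgrl had 0.94 with it and 0.81 without it, Ncbp3 0.92 and 0.82, and Pip5k1a 0.91 and 0.67. With group means removed and that library kept, those of Upp1 stood at 0.95, 0.91 and 0.92. These values are descriptions over libraries that share groups, picked as the highest of all genes tested. Among the members themselves, Upp2 had an r of 0.54 with Tk1 and of -0.52 with Tyms over 18 libraries. Upp2 and Tyms were both picked for their difference between HFD+AOS-FMT and HFD, so their r is partly fixed by that choice. The r largest in size between members was that of Cda with Uck1, at -0.555.

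Of 43 further genes of pyrimidine synthesis, salvage, breakdown and nucleoside transport, 39 were tested. The nucleoside transporters Slc28a2 and Slc28a3, the nucleotidase Nt5c1a and Uprt had values too low, at most 1.71 in any library. With AOS on the diet 1 of the 39 passed against HFD alone, where 0.823% of all genes did, and in the 6 other comparisons none did. That gene was Nt5m, a mitochondrial nucleotidase for dUMP and dTMP, which fell to 9.50 ± 0.552 in HFD+AOS, against 12.9 ± 0.516 in HFD kidneys (log2 difference -0.40, limma adjusted p = 0.0331). Its values were 9.45, 8.98 and 10.08 in HFD+AOS and 13.03, 13.27 and 12.28 in HFD kidneys, without overlap. Nt5m did not pass when any library of either group was left out, so its call rested on all 6; without control replicate 3, in neither group, 6 of the list passed, as did 819 of 11958 genes in all.

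Genes of the list went both ways. The median log2 difference of the 39 genes was -0.14 in HFD against control, where the median of all genes was -0.10, and 0.06 in HFD+AOS against HFD, where that of all genes was 0.01. It was 0.06 in HFD+AOS-FMT against HFD and 0.02 in HFD+control-FMT against HFD, and from -0.05 to 0.02 in the 3 other comparisons. The 8 tested members had medians of 0.01 in HFD against control and 0.01 in HFD+AOS against HFD. Of the 39, 14 had no overlap between HFD+AOS and HFD kidneys, 7 higher and 7 lower with AOS, where 28.2% of all genes had none.

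A few of these genes, named after their values were seen, sit next to the members in the pathway. Nt5e, the surface enzyme that releases nucleosides from monophosphates, was at 28.19, 37.45 and 22.64 in HFD+AOS against 59.38, 56.27 and 59.71 in HFD kidneys (limma adjusted p = 0.193), and at 64.04, 80.08 and 19.86 in control kidneys, where the low value is control replicate 3. Slc28a1, the sodium-coupled transporter of pyrimidine nucleosides, averaged 5.26 ± 0.663 in HFD+AOS against 3.40 ± 0.702 in HFD kidneys (log2 difference 0.51, limma adjusted p = 0.113). Downstream of Upb1, Agxt2, a mitochondrial aminotransferase that uses 3-aminoisobutyrate, averaged 53.3 ± 6.74 in AOS against 38.1 ± 2.65 in control kidneys (log2 difference 0.47, limma adjusted p = 0.213). Agxt2 was lowest in the control group, at 36.41 to 41.12, as Upb1 was. Aldh6a1, which handles the aldehyde of that path, averaged 435 ± 28.7 in HFD+AOS against 349 ± 24.5 in HFD kidneys (log2 difference 0.32, limma adjusted p = 0.0628). None of these 4 passed.

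**Figure D4:**
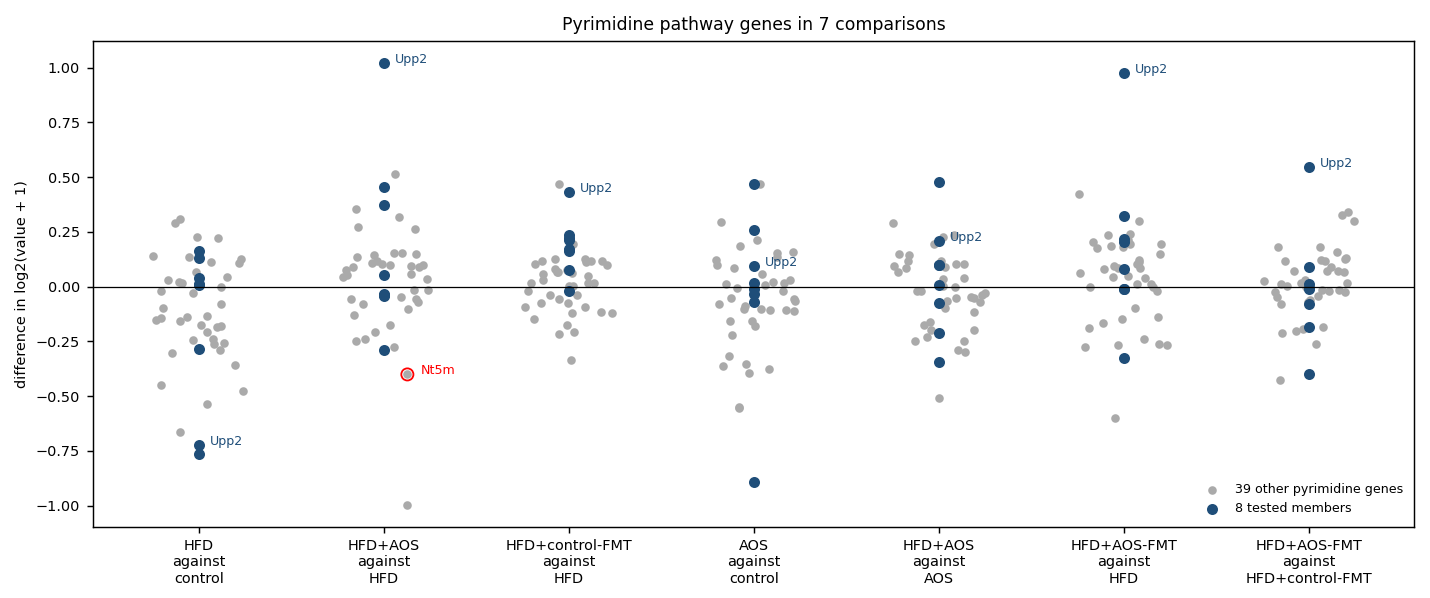
Difference in log2(value + 1) (y axis) of 39 other pyrimidine genes (grey) and the 8 tested members (blue) in 7 comparisons (x axis), first-named group minus second. The red ring marks Nt5m at -0.40 in HFD+AOS against HFD; Upp2 stands above the other genes in the comparisons of HFD+AOS, HFD+AOS-FMT and HFD+control-FMT with HFD except for 1 grey gene, Slc28a1, at 0.47 in the last.

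In the GENCODE annotation of GRCm38, Upp2 spans chromosome 2 from 58567298 to 58792971 on the plus strand, Upp1 chromosome 11 from 9118103 to 9136170 on the plus strand, and Tyms chromosome 5 from 30058202 to 30073617 on the minus strand. Dpyd spans 870796 bases of chromosome 3, from 118562129 to 119432924 on the plus strand. Of the members, 3 overlap a gene on the opposite strand that is also in the table: Uck1 overlaps Pomt1, Upb1 overlaps Gucd1 and Tk1 overlaps Afmid. Whether reads were counted by strand was not given in the sources used here, so the values of these 3 genes may include reads of their neighbours. Gucd1 stood at 40.93 to 63.3 and Afmid at 44.81 to 123.22 over the 18 libraries. The 10 liver genes that could mark stray hepatocyte RNA had sums of 10.03 to 78.71, and their part in the members' values was not tested.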

How the data were processed

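Kidney RNA-seq of 18 libraries was deposited by the authors as a table of normalized signal per gene. Per the submitters' processing notes, Bowtie 0.12.2 and mm10 were used; of the counting program, annotation, normalization and unit nothing is said in the sources at hand, so depth is unknown and no counting interval is given. Of 19545 entries, 26 with symbols turned into dates and 1 repeated symbol were left out. Column sums ran from 637302 to 721171 and no column was left unused.

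Values were taken as log2(value + 1), and the 12030 genes that reached 1 in 3 libraries were tested in limma 3.58.1 (R 4.3.3; trend and robust) in 1 fit of 6 groups with 12 residual degrees of freedom, two-sided, Benjamini-Hochberg adjusted within each comparison, threshold 0.05. A fold on this scale understates the change of low genes. The fit was tested on simulated data. Groups came from the treatment labels. The members and gene lists were chosen with earlier results of these data known. All 10 members are named, with values in every library for Upp1, Upp2, Tyms and any member called; pathway genes are named where called, up to 4 a comparison; genes of like pattern are the 3 with the highest r. Alternatives tried were another pseudocount, no filter, quantile normalization, no trend, 2 groups alone, a replicate block, a germ cell term and leaving out single libraries.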

Additional observations from a re-analysis of the deposited data

How the results depend on the processing

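Every log2 difference of a member between 2 groups given in the report kept its direction in the alternatives run, except 1: Upp2 in AOS against control was -0.29 with germ cell transcripts as a term, against 0.09 without. With that term 0 members passed between HFD+AOS and HFD, 0 between HFD+AOS-FMT and HFD and 0 in the test of any difference among the 6 groups, against 1 in each without it. The term as first planned, which included Smcp, put all 18 libraries on 1 side and could not be fitted. The version without Smcp was chosen after seeing the data. It is set by HFD replicate 3 against HFD replicates 1 and 2 alone. With quantile normalization 0 members passed in HFD+AOS-FMT against HFD and 2, Dpyd and Upp2, in the test of any difference. The cause was not tested. Leaving out 1 library at a time gave 1 to 2 members between HFD+AOS and HFD, 0 to 1 between HFD+AOS-FMT and HFD, 0 to 1 between HFD+AOS and AOS and 0 to 2 in the test of any difference. Dpyd was added without control replicate 3. In the test of any difference Upp2 was lost without HFD replicate 1 or 2. Between HFD+AOS-FMT and HFD it was lost without HFD replicate 1 or 2 and without each HFD+AOS-FMT library. Its log2 differences there were 0.90 to 1.05, against 0.98 with all. Both tests use values that Upp2 was picked from, and nothing is read from its calls in them.

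Counts over all genes moved far more: 99 in HFD+AOS against HFD became 7 to 347 over the settings and 10 to 819 with 1 library left out, and 21 in HFD+AOS-FMT against HFD became 1 to 179 and 0 to 585. Those of AOS against control (4) ran from 0 to 149 and 0 to 30, of HFD against control (0) from 0 to 25 and 0 to 217, of HFD+AOS against AOS (0) from 0 to 8 and 0 to 158, and of any difference (123) from 0 to 265 and 46 to 761. Nt5m was lost with the replicate block and the germ cell term.

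Deviations of same-numbered libraries correlated at -0.159 to 0.260. Differently numbered libraries were not set beside these, so whether equal replicate numbers mark a shared source was not tested. With the replicate block Upp2 in HFD+AOS against HFD had a limma adjusted p = 0.00592, and the block moved the count of all genes to 45 there and to 70 in the test of any difference, and changed no call of a member. Low signal limits Dpys and Dctd, and 3 libraries a group limit the rest.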

Other observations

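The difference between the AOS effects with and without the diet (HFD+AOS minus HFD, less AOS minus control) was 0.93 ± 0.21 (SE) on the log2 scale for Upp2. It did not pass over all genes (limma adjusted p = 0.274), and none of the 12030 genes did, with 12.4% of them at an unadjusted p under 0.05. For Cda the same quantity was -0.51 ± 0.19 (limma adjusted p = 0.376) and for Dpyd 0.44 ± 0.18 (limma adjusted p = 0.390). This includes the HFD libraries that led to the choice of Upp2, and no alternative was run for it.

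Dpys had its highest value of 0.59 in HFD+control-FMT replicate 2, the library with the highest albumin transcript (Alb, 21.82, against 1.45 to 10.88 in the other 17). The sum over 10 liver genes was highest in AOS replicate 1, at 78.71, where Dpys was lowest, at 0.03. Dpys was too low for a difference to be read, and a link between the 2 was not tested.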
